A study of Mus musculus with 10 samples.

Results

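The chemokine family of the mouse liver, meaning the chemokines, their signalling receptors and the atypical receptors, was examined across 10 liver RNA-seq libraries. The genes were chosen by name: every protein-coding entry of the count table whose symbol begins with Ccl, Cxcl, Xcl, Cx3cl, Ccr, Cxcr, Xcr, Cx3cr or Ackr followed by a digit. This gave 67 entries under 61 symbols, out of 54532 genes in the table: 44 ligand entries, 19 receptors and 4 atypical receptors. Of the 67, 33 passed the filter on low counts and were tested, 28 had counts but did not pass it, and 6 had no count in any library. Napabucasin livers came from 5 mice given BBI608, a quinone described as an inhibitor of transcription driven by STAT3, by oral gavage at 20 mg per kg daily for 7 days. Vehicle livers came from 5 mice given 1% NaCMC, a cellulose suspending agent, by the same route for the same time. Liver tissue was taken in both groups, and the sources used here do not give strain, sex or age. The study asked which genes of the liver and its microenvironment the drug affects.

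Chemokines are small secreted proteins that guide migrating leukocytes. They are sorted into CC, CXC, C and CX3C classes by the spacing of conserved cysteines near the amino end, and they act through G protein-coupled receptors on the cell that moves. Atypical receptors bind chemokines without coupling to G proteins, and so scavenge or transport them. Some chemokines place cells in resting tissue, such as those that gather T and B cells in lymphoid structures. Others are induced in inflammation by interferons, by NF-kB or by injury. In the liver they are made by hepatocytes, sinusoidal endothelium, stellate cells, bile duct cells and resident macrophages (Kupffer cells), while most receptors sit on immune cells.

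Library totals were 15364342 to 17369118 counts in napabucasin and 14124484 to 17759967 counts in vehicle livers, and mitochondrial genes took 9.03% to 19.9% of them in napabucasin and 7.03% to 19% in vehicle livers. Summed levels of 6 hepatocyte markers were 73800 to 129000 CPM (the count scaled to a common library size) in napabucasin and 51700 to 155000 CPM in vehicle livers, and no hepatocyte marker was at 0. Across all genes, edgeR's quasi-likelihood test called 0 of 14244 (0%) at a Benjamini-Hochberg adjusted p under 0.05, the smallest being 0.0644, while DESeq2 called 212. At an unadjusted p under 0.05 edgeR gave 1331 higher and 830 lower genes, 9.34% and 5.83% of those tested. Napabucasin replicate 5 and vehicle replicate 1 had the lowest summed Kupffer cell markers of the 10 libraries, 460 and 232 CPM, where the other 8 had 726 to 1775 CPM. In bulk tissue, fewer cells of a type and less RNA per cell cannot be told apart.

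Levels of different members were compared per gene length, in the authors' FPKM (fragments scaled to gene length and to a size set for each library). That size was not the count total. It was 22250000 against a total of 17759967 in vehicle replicate 2, and 11912000 against 14124484 in vehicle replicate 1. The 5 ligands with the highest mean FPKM over the 10 libraries were Cxcl12 (38.6), Cxcl13 (33.5), Ccl9 (31.5), Cxcl1 (28.1) and Ccl6 (22.1). Ccl5 followed at 9.24 FPKM and Cxcl9 at 8.96 FPKM. Most receptors lay near or below 1 FPKM. The atypical receptors Ackr2, Ackr1 and Ackr4 averaged 0.692, 0.569 and 0.155 FPKM. The order of the leading ligands rested on variable values: Cxcl12 had 33.3 ± 10.1 FPKM in napabucasin and 44.0 ± 7.38 FPKM in vehicle livers, whereas Cxcl1 had 19.8 ± 14.5 FPKM in napabucasin and 36.5 ± 47.3 FPKM in vehicle livers (SD, n = 5 each).

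**Figure D1:**
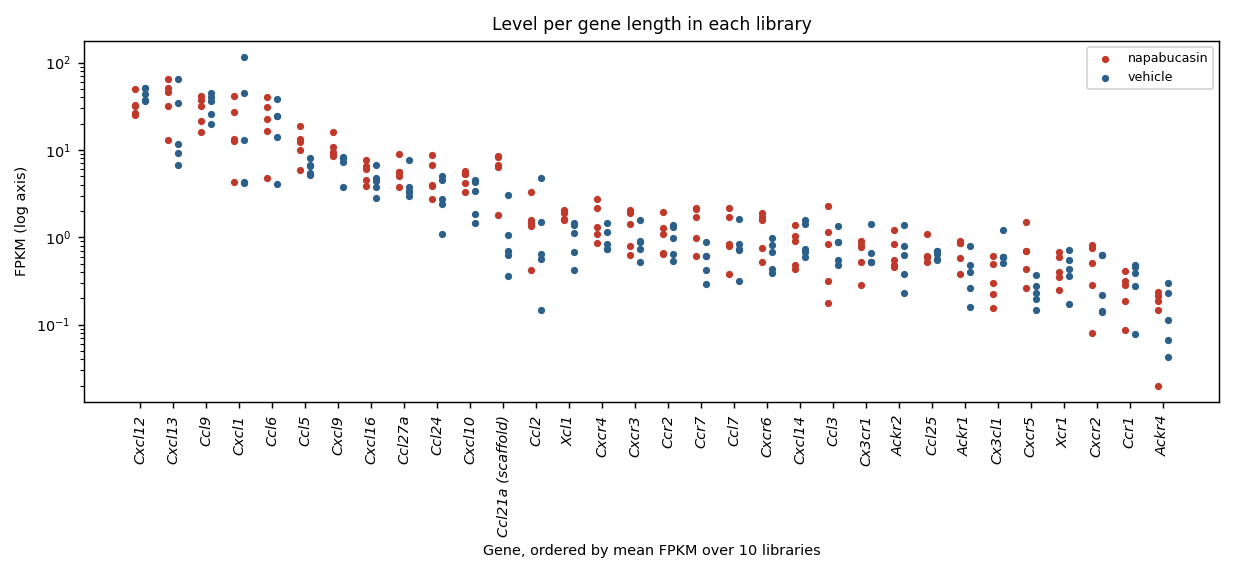
Level of the tested members in FPKM (log axis) in every library, napabucasin in red to the left of vehicle in blue, ordered by the mean over the 10 libraries. Cxcl12, with a mean of 38.6 FPKM, leads, and Ackr4, with 0.155 FPKM, is last.

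No member passed edgeR's adjusted threshold, beside the background of 0%; the smallest adjusted p was 0.185, for Ccl21a. At an unadjusted p under 0.05, 6 of the 33 tested members were higher in napabucasin livers, or 18.2% against the background of 9.34% of all genes tested. They were Ccl21a, Ccr7, Cxcr5, Ccl5, Cxcl9 and Cxcr6. On the lower side was 1 member, Cx3cl1, or 3.03% against a background of 5.83%. The median log2 fold change over the 33 was 0.45, where all genes tested had a median of 0.00, and 26 of the 33 were above 0 (78.8%, against 50.1% of all genes tested). Ccl21a and Xcl1 reached the filter's level in all napabucasin libraries but in only some vehicle libraries. For members kept in this way the filter itself favours a difference. These counts therefore describe the tested members and not the family. Without the filter, 43 of 61 members with counts were above 0, against 48.3% of all genes with counts. DESeq2 called 1 member, Ccl21a, at an adjusted p under 0.05, with 1.1% of its genes called higher and 0.368% lower.

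Libraries of equal replicate number deviated together across all genes, but weakly: only 6 of the 10 correlated best with their own number in the other group. A fit with the replicate number as a block put 12 higher and 2 lower members below an unadjusted p of 0.05, against backgrounds of 11.8% and 8.81%. In that fit 0 of the 33 passed the adjusted threshold. Fold changes, intervals and p-values printed for a member are from the fit without the block unless the block is named. The count of higher members was 4 of 33 without napabucasin replicate 4, against a background of 11.3%. There Cxcl9 and Cxcr6 lost their place at p under 0.05. Without vehicle replicate 2 the count was 11 of 34, also against a background of 11.3%. Cx3cl1 lost its place when napabucasin replicate 1, 2 or 5 or vehicle replicate 4 was left out.

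**Figure D2:**
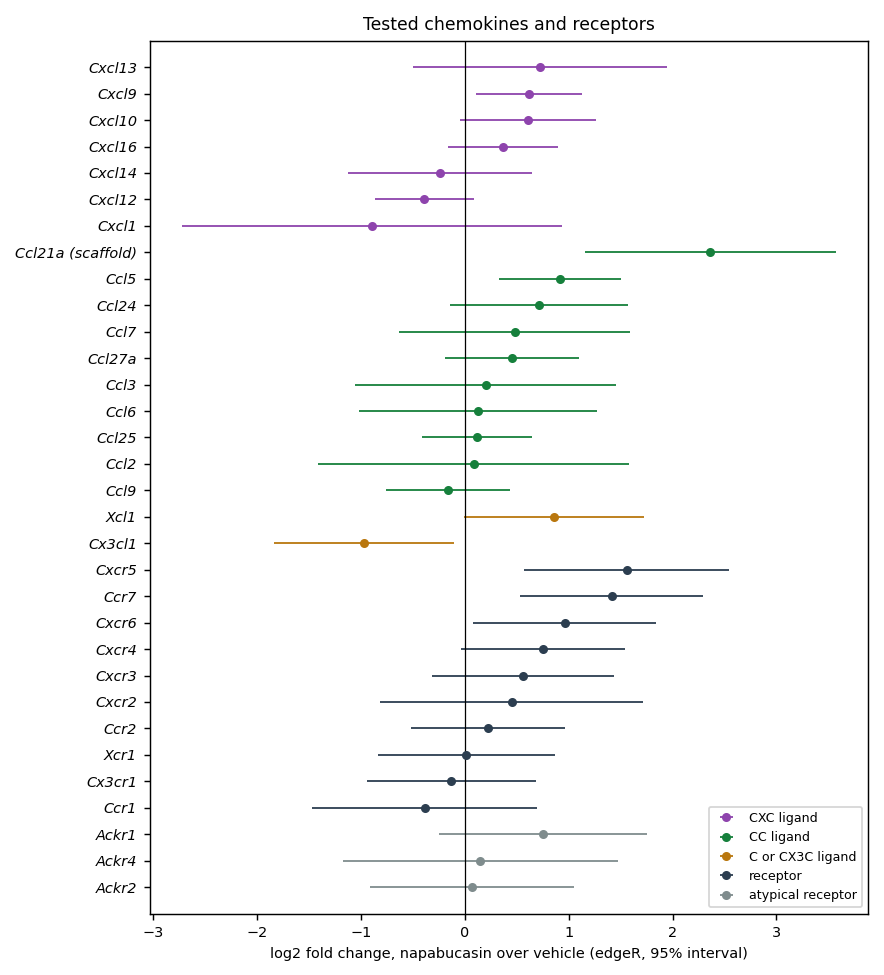
Log2 fold change, napabucasin over vehicle, of the tested members with 95% intervals from edgeR, grouped by class. Ccl21a lies farthest to the right at 2.36 and Cx3cl1 farthest to the left at -0.98, and the intervals of 7 members exclude 0.

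Ccl21a, Ccr7 and Cxcr5, of the axes that gather lymphocytes, had the 3 smallest p-values. Of these, Ccl21a passed the filter mainly through the napabucasin group, where it was high. Ccl21a encodes a ligand made by lymphatic endothelium and lymphoid stroma, and Ccr7, carried by naive T cells, B cells and mature dendritic cells, is its receptor. Cxcr5 is the receptor that brings B cells and follicular helper T cells to follicles, where its ligand Cxcl13 is made. None of these 3, nor Cxcl13, passed the adjusted threshold in edgeR.

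Ccl21a was counted almost wholly on an entry of a GRCm38 scaffold (ENSMUSG00000095320, JH584294.1, 121048 to 121713). It measured 2.62, 2.76, 0.719, 3.47 and 3.35 CPM in napabucasin replicates 1 to 5, against 0.257, 1.24, 0.426, 0.281 and 0.144 CPM in vehicle replicates 1 to 5. The ranges overlapped through napabucasin replicate 3, which lay below vehicle replicate 2; the other 4 napabucasin libraries lay above every vehicle library. This gave a log2 fold change of 2.36 (SE 0.56, edgeR unadjusted p = 0.000928, adjusted p = 0.185). The counts behind it were 42, 51, 13, 65 and 49 in napabucasin and 3, 27, 6, 5 and 2 in vehicle libraries. Ccl21a passed the filter mainly through the napabucasin group, and a member kept in this way is more likely to lie higher there. DESeq2 gave 2.40 with an adjusted p of 0.00634, and the adjusted p ran from 0.00634 to 0.446 over 22 alternatives. Leaving out vehicle replicate 2 gave 3.18. The other markers of lymphatic vessels and lymphoid stroma, which number 4, did not move together. Flt4 had 8.63 to 13.1 CPM in napabucasin and 2.75 to 15.6 CPM in vehicle livers (log2 fold change 0.75, edgeR unadjusted p = 0.101). Prox1, which hepatocytes also express and which made up most of the sum of 58.5 to 83.5 CPM in napabucasin and 87.5 to 146 CPM in vehicle livers, differed by -0.91 on the log2 scale (edgeR unadjusted p = 0.000598). Pdpn and Madcam1 did not pass the filter, at 0 to 0.641 CPM in napabucasin and 0 to 0.646 CPM in vehicle livers. The Ccl21 genes are near-identical copies: of 6 entries 3 had counts, and the other 5 together held 10 counts beside the 263 of this one. Reads can be shared among them, so the value belongs to the Ccl21 genes together and is uncertain for any single copy. The other ligand of Ccr7, Ccl19, held 1 count over its 2 entries.

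Ccr7 (ENSMUSG00000037944, chromosome 11, 99144196 to 99155077, GRCm38) measured 3.43, 1.95, 4.31, 4.22 and 1.23 CPM in napabucasin and 0.855, 1.24, 1.21, 1.74 and 0.574 CPM in vehicle livers. Napabucasin replicate 5 lay inside the vehicle range and the other 4 above it. Its log2 fold change was 1.41 (SE 0.41, edgeR unadjusted p = 0.00411, adjusted p = 0.227). Summed levels of 5 dendritic cell markers were 21.0 to 60.4 CPM in napabucasin and 12.2 to 24.7 CPM in vehicle livers; their part in the result was not tested. Cxcr5 (ENSMUSG00000047880, chromosome 9, 44511787 to 44561877) measured 5.05, 1.46, 2.32, 2.35 and 0.889 CPM in napabucasin and 0.770, 0.505, 0.924, 1.24 and 0.646 CPM in vehicle livers, again with only napabucasin replicate 5 inside the vehicle range. Its log2 fold change was 1.56 (SE 0.46, edgeR unadjusted p = 0.0046, adjusted p = 0.228), and 1.11 without napabucasin replicate 1. The span of Cxcr5, with 271 counts over the 10 libraries, overlaps that of Bcl9l on the other strand, which held 4801 counts.

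Cxcl13, made by follicular stroma and by macrophages, was abundant and uneven. It measured 54.2, 76.6, 37.0, 59.6 and 15.3 CPM in napabucasin livers, against 7.78, 40.4, 13.6, 74.8 and 10.3 CPM in vehicle livers. The groups overlapped widely, since vehicle replicate 4 was as high as the highest napabucasin libraries and napabucasin replicate 5 was near the low vehicle ones. The log2 fold change was 0.72 (95% interval -0.50 to 1.94, edgeR adjusted p = 0.534), and 1.42 without vehicle replicate 4. With the replicate block it was 1.05 (edgeR unadjusted p = 0.0144, adjusted p = 0.151), with napabucasin higher in 4 of the 5 pairs.

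**Figure D3:**
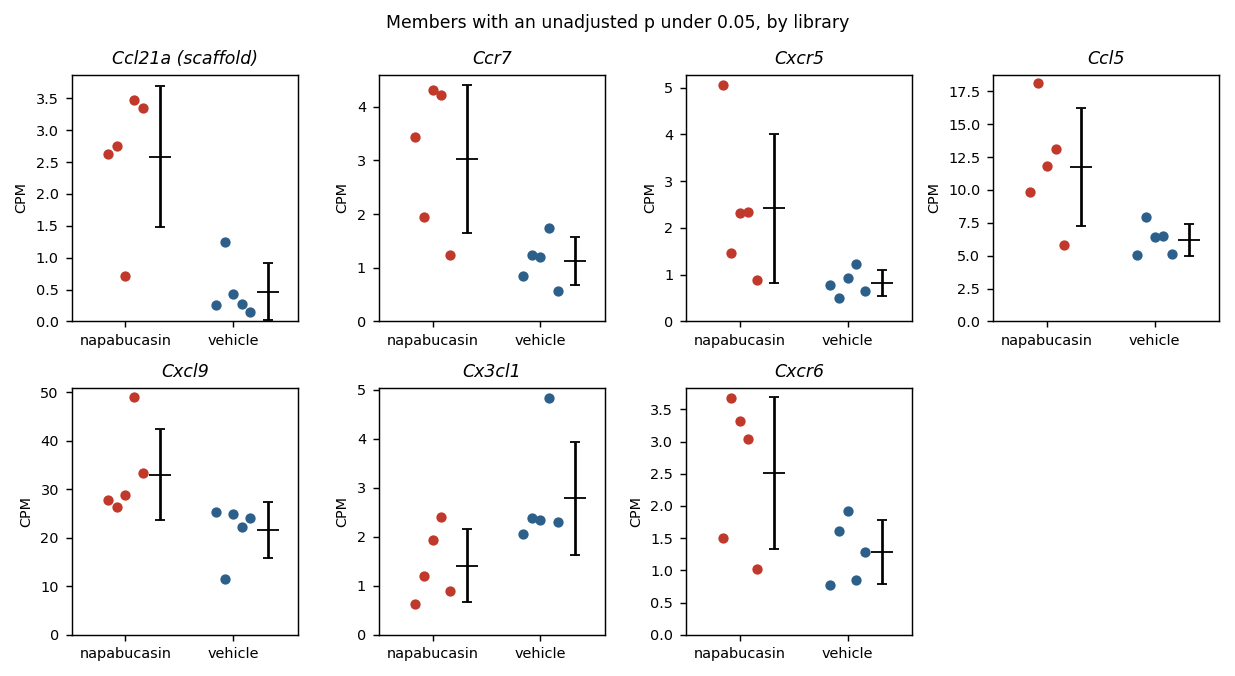
CPM of the 7 members with an unadjusted p under 0.05, 1 point per library, napabucasin left of vehicle, with the mean and SD of each group as a bar beside the points. The groups of Cxcl9 are the only ones of the 7 that do not overlap, at 26.3 to 49.0 CPM in napabucasin and 11.5 to 25.3 CPM in vehicle livers.

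Ligands and receptors of effector T cells and NK cells included 3 members at an unadjusted p under 0.05, Ccl5, Cxcl9 and Cxcr6. Others lay above that threshold, Xcl1 and Cxcl10 closely, at edgeR unadjusted p of 0.052 and 0.066. Ccl5 draws effector T cells, NK cells and monocytes and is itself made by cytotoxic lymphocytes. Cxcl9 and Cxcl10 are induced by interferons and act on Cxcr3. Cxcr6, on tissue-resident T and NKT cells, binds Cxcl16, which sinusoidal endothelium and macrophages display.

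Ccl5 (ENSMUSG00000035042, chromosome 11, 83525778 to 83530518) measured 9.85, 18.1, 11.8, 13.1 and 5.82 CPM in napabucasin and 5.05, 7.94, 6.40, 6.52 and 5.10 CPM in vehicle livers. Only napabucasin replicate 5 fell within the vehicle range. Ccl5 had a log2 fold change of 0.92 (SE 0.27, edgeR unadjusted p = 0.00472, adjusted p = 0.228). Cxcr6 (ENSMUSG00000048521, chromosome 9, 123806475 to 123811760) measured 1.50, 3.68, 3.32, 3.05 and 1.03 CPM in napabucasin and 0.770, 1.61, 1.92, 0.843 and 1.29 CPM in vehicle livers, which gave 0.96 on the log2 scale (edgeR unadjusted p = 0.0348, adjusted p = 0.312). Its p was under 0.05 in 4 of the 10 fits that left out a library. Cxcl16 averaged 17.6 ± 4.66 CPM in napabucasin and 13.6 ± 4.30 CPM in vehicle livers (SD, n = 5 each), with overlapping groups and a log2 fold change of 0.36 (95% interval -0.16 to 0.89). It was higher in 5 of the 5 pairs of equal replicate number, and the block gave 0.38 (edgeR unadjusted p = 0.0406, adjusted p = 0.223).

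Cxcl9 (ENSMUSG00000029417, chromosome 5, 92321347 to 92328079) measured 27.7, 26.3, 28.8, 49.0 and 33.3 CPM in napabucasin livers, against 25.3, 11.5, 24.8, 22.1 and 24.1 CPM in vehicle livers. All 5 napabucasin libraries lay above all 5 vehicle libraries, by a narrow margin. The log2 fold change was 0.62 (SE 0.24, edgeR unadjusted p = 0.0222, adjusted p = 0.285), and 0.43 without napabucasin replicate 4. Such separation was found for 2 of the 33 tested members, Cxcl9 and Xcl1, where 1.21% of all genes tested were separated in this direction and 0.934% in the other. Xcl1, a ligand released by NK and CD8 T cells, had 0.829 to 1.08 CPM in napabucasin and 0.225 to 0.770 CPM in vehicle livers (edgeR unadjusted p = 0.052, adjusted p = 0.333). These levels rested on 14 to 20 counts per napabucasin library and 4 to 16 counts per vehicle library. Xcl1 passed the filter mainly through the napabucasin group. A member kept in this way is more likely to lie higher there, so the separation of Xcl1 is not evidence of a difference. The Xcl1 receptor Xcr1, on cross-presenting dendritic cells, differed by 0.01 on the log2 scale (95% interval -0.84 to 0.87).

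Cxcl10 (chromosome 5, 92346638 to 92348889), beside Cxcl9 in the genome, measured 9.73, 7.57, 11.8, 12.9 and 12 CPM in napabucasin and 3.34, 9.87, 7.60, 10.3 and 4.09 CPM in vehicle livers. Vehicle replicates 2, 3 and 4 reached into the napabucasin range, and the difference was 0.61 on the log2 scale (95% interval from -0.05 up to 1.26; edgeR adjusted p = 0.356). The replicate block gave 0.71 (edgeR unadjusted p = 0.0338, adjusted p = 0.207), with napabucasin higher in 4 of the 5 pairs. Cxcr3, the receptor of both, had 1.09 to 3.58 CPM in napabucasin and 0.899 to 2.75 CPM in vehicle livers, with overlapping groups and a log2 fold change of 0.56 (95% interval -0.31 to 1.43). Cxcl11, the other ligand of Cxcr3, is listed as a polymorphic pseudogene and so lies outside the rule; it had 3.47 to 25.2 CPM in napabucasin and 2.92 to 11.2 CPM in vehicle livers. Ifng, which encodes interferon gamma, an inducer of these 3 ligands, was under the filter, at 0 to 11 counts per napabucasin library and 0 to 7 counts per vehicle library.

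The windows upstream of Cxcl9 and Cxcl10 are shown because these neighbouring genes are known above all as induced by interferons. They are the 250 bases before the RefSeq start site in GRCm38.p6, read 5′ to 3′ on the gene's minus strand, at chr5:92328080-92328329 for Cxcl9 and chr5:92348890-92349139 for Cxcl10. The capitals mark a match to TTTC, any 2 bases, TTTC, the core of the interferon-stimulated response element, on either strand.
Cxcl9: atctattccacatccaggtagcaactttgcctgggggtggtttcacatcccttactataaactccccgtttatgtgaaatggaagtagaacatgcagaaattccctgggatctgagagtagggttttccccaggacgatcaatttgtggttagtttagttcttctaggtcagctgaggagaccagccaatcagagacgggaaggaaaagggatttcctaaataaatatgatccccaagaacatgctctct
Cxcl10: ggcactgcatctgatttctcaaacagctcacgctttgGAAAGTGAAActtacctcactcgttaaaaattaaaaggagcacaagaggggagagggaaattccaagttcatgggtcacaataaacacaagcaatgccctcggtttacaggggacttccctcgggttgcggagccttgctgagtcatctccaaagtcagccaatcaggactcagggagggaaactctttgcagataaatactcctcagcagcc

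The Cxcl10 match began 213 bases before the start site, and the Cxcl9 window held no match. The motif stood in 2.98% of the 32851 RefSeq promoter windows of this length and in 2 of the 28 windows of tested members, those of Cxcl10 and Cxcl14. RefSeq windows were found for 25 of the 33 tested members; Ccl2, Ccl5, Ccl7, Ccl24, Ccr7, Cxcl16 and Cxcr5 were among those with none in the table used. The STAT site (TTC, any 3 bases, GAA, the same on both strands) stood in 7.02% of all windows and in 1 of the 28, that of Cxcl14. A match describes letters and was not tested as a binding site.

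Markers of lymphocytes lay higher in the same libraries. Summed levels of 7 T cell markers were 13.9 to 28.7 CPM in napabucasin and 8.37 to 12.5 CPM in vehicle livers, with all 7 above 0 in log2 fold change and 6 at an unadjusted p under 0.05. Those of 6 B cell markers were 42.8 to 76.3 CPM in napabucasin and 17.0 to 26.5 CPM in vehicle livers, with 6 of 6 at p under 0.05, and neither pair of ranges overlapped. Those of 5 NK cell markers were 5.68 to 13.2 CPM in napabucasin and 3.68 to 8.04 CPM in vehicle livers, which overlapped. Of the 4 NK cell markers tested, 3 were above 0 and 2 were higher at p under 0.05, and Klrb1c lay at -0.24 in log2 fold change. Among all genes tested, 50.1% were above 0, 9.34% were higher at an unadjusted p under 0.05 and 1.21% had separated ranges on the higher side. No marker of these 3 lists was at 0 in all libraries of a group.

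Beside these markers, 5 members of lymphocytes were also expressed as a percentage of these marker sums within each library, a measure free of scaling between libraries and chosen after the levels had been seen. Cxcr5 was 4.07% ± 1.95 of the B cell sum in napabucasin and 3.54% ± 0.913 in vehicle livers (SD, n = 5 each). Of the T and B cell sum, Ccr7 was 3.89% ± 2.00 in napabucasin and 3.32% ± 1.07 in vehicle livers. Of the T and NK cell sum, Ccl5 was 34.5% ± 7.28 in napabucasin and 38.4% ± 7.39 in vehicle livers. On the T and NK cell sum, Cxcr6 was 7.29% ± 2.44 in napabucasin and 7.61% ± 1.71 in vehicle livers, and Cxcr3 was 7.16% ± 3.02 in napabucasin and 9.57% ± 2.90 in vehicle livers. As mean log2 differences these were 0.11 for Cxcr5, 0.14 for Ccr7, -0.16 for Ccl5, -0.11 for Cxcr6 and -0.48 for Cxcr3. The log2 fold changes in CPM of the same 5, in that order, were 1.56, 1.41, 0.92, 0.96 and 0.56. The part of the marker sums in these fold changes was not tested. A two-sided exact permutation test over all 252 unpaired assignments of libraries, whose smallest p is 0.0079, gave p = 0.222 to 0.786 for the 5 ratios (n = 5 each) and 0.786 for each after Benjamini-Hochberg adjustment over the 5. With so few libraries the test can miss a difference, so it does not show that the ratios were equal. With 1 library left out, the log2 difference ran from -0.10 to 0.32 for Cxcr5, from -0.11 to 0.32 for Ccr7, from -0.26 to -0.08 for Ccl5, from -0.23 to 0.08 for Cxcr6 and from -0.68 to -0.24 for Cxcr3.

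Members of the macrophage and monocyte axes overlapped between the groups. Ccl6 and Ccl9 are mouse CC ligands made in quantity by macrophages and other myeloid cells, and Ccl24 is a ligand of eosinophils. Ccl6 (chromosome 11, 83587882 to 83593087) measured 30.6, 40.9, 55.7, 73.3 and 8.62 CPM in napabucasin and 7.35, 70.5, 44.5, 44.5 and 24.7 CPM in vehicle livers. In Ccl6 the lowest 2 of the 10 libraries were napabucasin replicate 5 and vehicle replicate 1, which were also the lowest 2 in the Kupffer marker sum. Cxcl13, Ccl24, Ccl9 and Cxcl16, compared in the same way, did not have these 2 libraries lowest. Ccl9 had 97.4 and 80.5 CPM in them, within the 50.7 to 136 CPM of the other 8. All 6 Kupffer markers were above 0 in log2 fold change, against 50.1% of all genes tested, and 1 was at an unadjusted p under 0.05, against 9.34%. Their sums were 460 to 1780 CPM in napabucasin and 232 to 1240 CPM in vehicle livers, and their part in the result was not tested. On the log2 scale, the fold change of Ccl6 was 0.12 (95% interval -1.02 to 1.27, edgeR adjusted p = 0.920), and 0.10 without those 2 libraries.

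**Figure D4:**
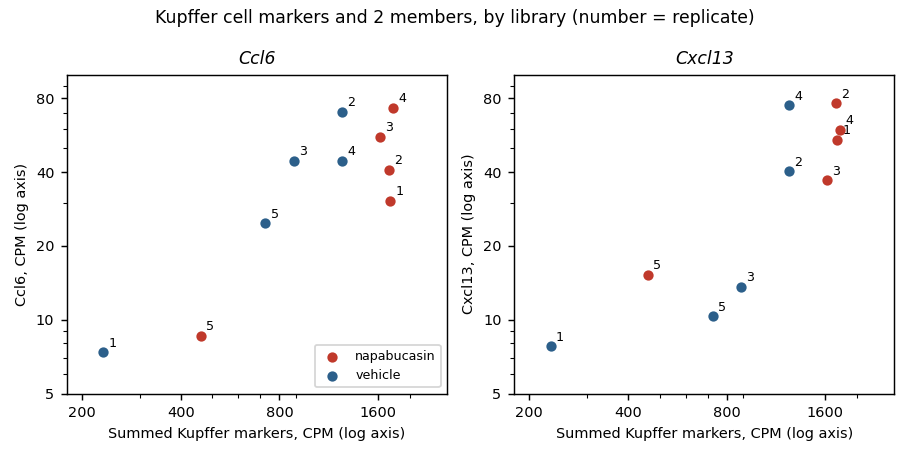
Ccl6 and Cxcl13 in CPM against the summed CPM of 6 Kupffer cell markers (both log axes), 1 point per library labelled by its replicate number, napabucasin in red and vehicle in blue. Napabucasin replicate 5 and vehicle replicate 1, at 460 and 232 CPM of markers, are the lowest in Ccl6. In Cxcl13, vehicle replicate 5, at 10.3 CPM, lies below napabucasin replicate 5, at 15.3 CPM.

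Ccl9 had 50.7 to 128 CPM in napabucasin and 62.2 to 136 CPM in vehicle livers, ranges that nearly coincide, with a log2 fold change of -0.16 (95% interval -0.76 to 0.44). Ccl24 measured 5.24, 8.77, 11.4, 5.13 and 3.63 CPM in napabucasin and 1.45, 6.70, 5.90, 3.09 and 3.52 CPM in vehicle livers, or 0.72 on the log2 scale (edgeR unadjusted p = 0.0945, adjusted p = 0.396). It was higher in 5 of the 5 pairs, and the block gave 0.76 (edgeR unadjusted p = 0.0176, adjusted p = 0.162). Of the monocyte attractants, Ccl2 had 0.499 to 3.79 CPM in napabucasin and 0.171 to 5.39 CPM in vehicle livers, and Ccl7 had 0.312 to 1.76 CPM in napabucasin and 0.257 to 1.29 CPM in vehicle livers. Neither separated the groups, and the log2 fold change of Ccl2 ran from -0.35 without napabucasin replicate 4 to 1.13 without vehicle replicate 4. Ccr2, the receptor that brings monocytes from blood, averaged 7.68 ± 3.63 CPM in napabucasin and 6.57 ± 2.59 CPM in vehicle livers, a log2 fold change of 0.22 (95% interval -0.52 to 0.97). Ccr1 differed by -0.39 on the log2 scale (95% interval -1.47 to 0.70) and Ccl3, a ligand of Ccr1, by 0.20 (95% interval -1.06 to 1.46). Monocyte markers without Ccr2 summed to 5.61 to 17.6 CPM in napabucasin and 1.80 to 17.9 CPM in vehicle livers.

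Among the neutrophil attractants, Cxcl1 had the widest interval of the 33 tested members. Cxcl1 (chromosome 5, 90891241 to 90893115), which hepatocytes and endothelium release on injury or bacterial signals and which acts on Cxcr2, measured 8.23, 51.6, 77.3, 25.7 and 24.4 CPM in napabucasin livers. In vehicle livers it measured 8.21, 221, 85.2, 24.4 and 7.83 CPM. Vehicle replicate 2 alone stood above every other library, and both groups also held values near 8 CPM. For Cxcl1 the log2 fold change was -0.89 (95% interval -2.72 to 0.94, edgeR adjusted p = 0.603), and 0.28 without vehicle replicate 2. Cxcl2 and Cxcl3, neighbours of Cxcl1 with the same receptor, did not pass the filter. Cxcl2 had 0, 20, 14, 4 and 4 counts in napabucasin and 0, 26, 3, 3 and 1 counts in vehicle libraries, and Cxcl3 had its 6 counts in vehicle replicate 2 and 0 in the other 9 libraries. Cxcl5 had 37 counts over the napabucasin and 31 over the vehicle libraries. Cxcr2 had 0.249 to 2.49 CPM in napabucasin and 0.428 to 1.93 CPM in vehicle livers, with 6 neutrophil markers summing to 18 to 65.2 CPM in napabucasin and 13.1 to 40.9 CPM in vehicle livers.

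The upstream windows of these 3 neighbouring genes are shown because vehicle replicate 2 was the highest library for all 3. For Cxcl2 it led narrowly, with 26 counts against 20 in napabucasin replicate 2, and Cxcl3 had only 6 counts. A link between these levels and the motif was not tested. Each is the 250 bases before the RefSeq start site in GRCm38.p6, read 5′ to 3′ on the plus strand, at chr5:90890995-90891244 for Cxcl1, chr5:90903649-90903898 for Cxcl2 and chr5:90785851-90786100 for Cxcl3. The capitals mark matches to GGG, any 2 bases, TTTCC, a form of the NF-kB site, on either strand.
Cxcl1: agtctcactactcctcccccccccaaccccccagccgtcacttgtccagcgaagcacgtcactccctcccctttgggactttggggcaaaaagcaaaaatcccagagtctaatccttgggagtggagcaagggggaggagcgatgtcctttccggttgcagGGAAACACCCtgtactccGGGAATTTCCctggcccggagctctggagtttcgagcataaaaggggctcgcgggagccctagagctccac
Cxcl2: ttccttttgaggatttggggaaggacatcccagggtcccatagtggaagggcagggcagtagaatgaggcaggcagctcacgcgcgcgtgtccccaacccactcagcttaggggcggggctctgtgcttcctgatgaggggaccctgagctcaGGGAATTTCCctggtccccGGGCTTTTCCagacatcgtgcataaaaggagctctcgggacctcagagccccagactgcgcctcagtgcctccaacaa
Cxcl3: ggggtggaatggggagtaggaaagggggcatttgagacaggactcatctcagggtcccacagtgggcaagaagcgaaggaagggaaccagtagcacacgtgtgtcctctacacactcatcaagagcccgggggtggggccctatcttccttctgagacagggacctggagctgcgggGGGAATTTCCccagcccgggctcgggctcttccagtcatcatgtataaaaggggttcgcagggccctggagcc

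The letters GGGAATTTCC stood in all 3 windows, beginning 71 bases before the start site in Cxcl1, 97 in Cxcl2 and 73 in Cxcl3. A further match began at 89 bases in Cxcl1 and at 78 bases in Cxcl2, and no match overlapped another. The motif stood in 1.41% of all 32851 windows, and in 2 of the 28 windows of tested members, those of Cxcl1 and Ccl9.

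Members that hold cells in resting tissue or mark vessels lay on both sides of 0. Cxcl12, which retains leukocytes and progenitor cells through Cxcr4, had the highest level of all members in CPM too, at 210, 219, 264, 417 and 267 CPM in napabucasin and 299, 312, 360, 420 and 416 CPM in vehicle livers. Napabucasin libraries other than replicate 4 lay below every vehicle library, and replicate 4 lay near the top of the vehicle range. Its log2 fold change was -0.39 (95% interval -0.87 to 0.09, edgeR unadjusted p = 0.101, adjusted p = 0.404), and -0.59 without napabucasin replicate 4. Cxcl12 was lower in 5 of the 5 pairs, and the block gave -0.42 (edgeR unadjusted p = 0.0389, adjusted p = 0.220). Cxcr4 had 1.57 to 5.09 CPM in napabucasin and 1.35 to 2.58 CPM in vehicle livers, or 0.75 on the log2 scale (edgeR unadjusted p = 0.0602, adjusted p = 0.346). Ackr3, which scavenges Cxcl12, did not pass the filter and had 82 counts over the napabucasin and 54 over the vehicle libraries.

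Cx3cl1 (ENSMUSG00000031778, chromosome 8, 94772009 to 94782427), a membrane-bound ligand of endothelium and epithelium, measured 0.623, 1.19, 1.94, 2.40 and 0.889 CPM in napabucasin livers. In vehicle livers it measured 2.05, 2.39, 2.34, 4.83 and 2.30 CPM. Napabucasin replicates 1, 2, 3 and 5 lay below every vehicle library, and napabucasin replicate 4 lay inside the vehicle range. The log2 fold change was -0.98 (SE 0.40, edgeR unadjusted p = 0.0301, adjusted p = 0.301), and -0.68 without vehicle replicate 4. Its receptor Cx3cr1, on monocytes and some resident macrophages, had 1.31 to 4.11 CPM in napabucasin and 2.30 to 6.46 CPM in vehicle livers, a log2 fold change of -0.13 (95% interval -0.95 to 0.68). Markers of bile duct cells, one of the epithelia of the liver, summed to 266 to 446 CPM in napabucasin and 214 to 478 CPM in vehicle livers, and those of sinusoidal endothelium to 128 to 203 CPM in napabucasin and 50.5 to 166 CPM in vehicle livers.

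Cxcl14, Ccl25 and Ccl27a, ligands best known in epithelia, overlapped between the groups and did not pass the adjusted threshold. Ccl27a (chromosome 4, 41769467 to 41774247) averaged 13.9 ± 4.78 CPM in napabucasin and 10.2 ± 4.87 CPM in vehicle livers (SD, n = 5 each), or 0.46 on the log2 scale (edgeR unadjusted p = 0.151, adjusted p = 0.462). Vehicle replicate 1, at 18.8 CPM, stood above the other vehicle libraries, and without it the log2 fold change was 0.78. With the block it was 0.49 (edgeR unadjusted p = 0.0261, adjusted p = 0.188), with 4 of the 5 pairs higher. The span of Ccl27a overlaps that of Il11ra1 on the other strand, which held 8927 counts over the 10 libraries against 1944 for Ccl27a. The library protocol in the labels names no step that marks strand. Whether reads of such pairs were told apart by strand is therefore not known. Ccl25, overlapped in the same way by Elavl1, differed by 0.12 on the log2 scale (95% interval -0.41 to 0.65), and Cxcl14 by -0.24 (95% interval -1.12 to 0.65). Ccr9, the receptor of Ccl25, did not pass the filter and had 69 counts over the napabucasin and 33 over the vehicle libraries. In all, the spans of 12 of the 33 tested members overlapped another gene, Cxcr5, Cxcr6, Cxcl10, Cxcl16 and Xcl1 among them.

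The atypical receptors did not separate the groups. Ackr1, on venular endothelium and red cell precursors, averaged 1.02 ± 0.333 CPM in napabucasin and 0.597 ± 0.356 CPM in vehicle livers, a log2 fold change of 0.75 (95% interval -0.25 to 1.75). Ackr2, a scavenger of inflammatory CC ligands, averaged 2.24 ± 1.02 CPM in napabucasin and 2.14 ± 1.41 CPM in vehicle livers. Ackr4, which binds Ccl19, Ccl21 and Ccl25, averaged 0.875 ± 0.467 CPM in napabucasin and 0.810 ± 0.594 CPM in vehicle livers (SD, n = 5 each).

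Within each group, single libraries carried many of the extremes. Napabucasin replicate 4 held the highest value of its group for 17 of the 33 tested members, and napabucasin replicate 5 the lowest for 12. Among vehicle libraries, replicates 2 and 4 held the highest value for 13 and 11 members, and replicate 1 the lowest for 15. The median over the 33 members of log2 CPM relative to the vehicle mean was 0.26, 0.50, 0.63, 0.89 and -0.07 in napabucasin replicates 1 to 5, against -0.33, 0.37, 0.06, 0.23 and -0.24 in vehicle replicates 1 to 5. The groups overlapped by this measure, with napabucasin replicate 5 below 3 of the vehicle libraries. Markers of stellate cells and fibroblasts were also highest in napabucasin replicate 4, at 812 CPM, where the other 4 napabucasin libraries had 289 to 463 CPM and the vehicle libraries 265 to 352 CPM; their part in the result was not tested.

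**Figure D5:**
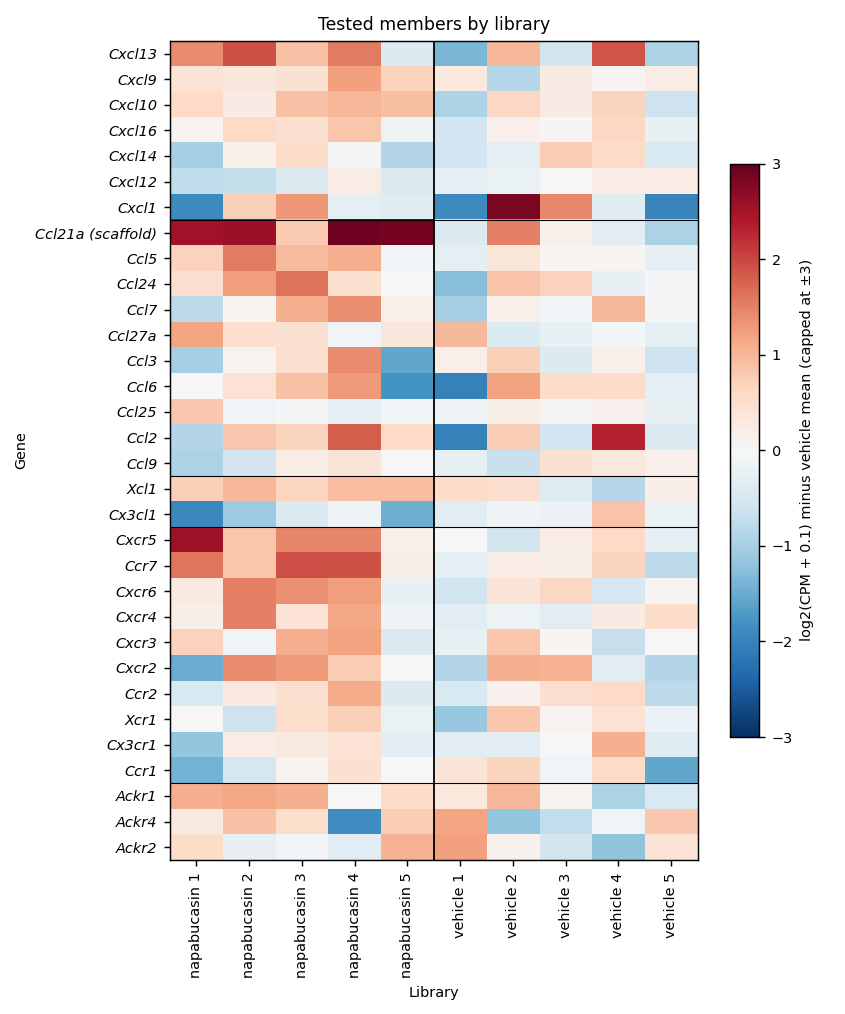
Log2(CPM + 0.1) of the tested members in each library minus the mean of the vehicle libraries (colours capped at ±3), napabucasin left of vehicle, grouped by class. The row of Ccl21a is high in napabucasin replicates 1, 2, 4 and 5, and the row of Cxcl1 varies within both groups.

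Of 55 genes that carry chemokine signals inside the cell or act with them in migration, a list of G protein subunits, kinases, Rac regulators, integrins, arrestins and Rgs inhibitors, 54 were tested. None passed the adjusted threshold in edgeR. Below an unadjusted p of 0.05 lay 22 higher and 0 lower genes, beside the backgrounds of 9.34% and 5.83%. Above 0 were 46 of the 54, against 50.1% of all genes tested, with a median log2 fold change of 0.45. The smallest p-values belonged to blood cell genes. Was, an actin regulator, averaged 8.75 ± 2.44 CPM in napabucasin and 4.04 ± 1.34 CPM in vehicle livers, and Rhoh, a small GTPase of blood cells, 4.27 ± 1.20 CPM in napabucasin and 1.96 ± 0.513 CPM in vehicle livers. Pik3cd, a lipid kinase of leukocytes, averaged 38.2 ± 15.6 CPM in napabucasin and 17.5 ± 7.11 CPM in vehicle livers (SD, n = 5 each), and all 3 overlapped between groups. Rgs1, which damps chemokine receptor signals in lymphocytes, measured 3.49, 49.5, 6.75, 10.5 and 4.31 CPM in napabucasin and 1.03, 2.16, 1.49, 5.11 and 4.74 CPM in vehicle livers, so its log2 fold change of 2.35 (edgeR unadjusted p = 0.00529, adjusted p = 0.230) included 1 napabucasin library far above the rest. The 4 lower genes with the smallest p, all widely expressed, were Gnai3 (log2 fold change -0.17), Rhoa (-0.25), Rapgef1 (-0.13) and Rac1 (-0.16), with unadjusted p from 0.292 to 0.526.

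Of the 34 members not tested, 28 had counts, at most 136 over the 10 libraries. With a filter of at least 10 counts in 5 libraries, Ccr9 gave 0.91 on the log2 scale (edgeR unadjusted p = 0.0383, adjusted p = 0.314), where 9.39% of all genes tested had an unadjusted p under 0.05 on the higher side and 5.79% on the lower, and Ackr3 gave 0.51 (unadjusted p = 0.324). Without a filter, Ccl11, Ccl12 and Cxcl3 had edgeR unadjusted p of 0.0177, 0.0396 and 0.0408, the first pair higher and Cxcl3 lower, where 6.33% of all genes were higher and 5.31% lower by the same rule. Their edgeR adjusted p ran from 0.377 to 0.423. By DESeq2, Ccl11, Ccl12 and Ccl4 had unadjusted p of 0.0222, 0.0243 and 0.0409, all higher and without an adjusted p, where 5.94% of all genes were higher by the same rule. Ccl4, a chemokine of activated macrophages and lymphocytes, had 63 counts over the napabucasin and 22 over the vehicle libraries, and Ccl22, a ligand of regulatory T cells through Ccr4, had 54 over the napabucasin and 37 over the vehicle libraries. Ccr3 and Ccr6 had 31 and 14 counts over the napabucasin and 39 and 27 over the vehicle libraries. Ccl12, a mouse ligand of Ccr2, had 32 counts over the napabucasin and 7 over the vehicle libraries. Ccl11, which attracts eosinophils, had 21 over the napabucasin libraries, 13 of them in replicate 1, and 1 over the vehicle libraries. The members at 0 in every library were Ccl26 and 5 further copies on chromosome 4 or on scaffolds, 2 of Ccl21b and 1 each of Ccl21c, Ccl27a and Ccl19. A count of 1 was worth 0.0459 to 0.0855 CPM depending on the library, so a gene at 0 could lie at up to 0.138 to 0.257 CPM (3 counts) in a single library, by counting error alone.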

How the data were processed

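Reads per gene in 10 liver libraries were deposited by the authors as raw counts, and as FPKM made by the authors from counts and gene length. CASAVA, HISAT2 2.0.5 and featureCounts 1.5.0-p3 are named in the submitters' processing notes, with build GRCm38 (mm10); the strand setting and the handling of multi-mapping reads were not given in these sources. Poly-A RNA was selected, per the labels' protocols.

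The deposited counts went into edgeR 4.0.16 (R 4.3.3). After filterByExpr, which kept 14244 of 54532 genes, and TMM scaling, its robust quasi-likelihood test compared the groups with no covariate, adjusted by Benjamini-Hochberg over all genes tested. CPM use TMM library sizes; standard errors follow from the F statistic and intervals are 95%. Nothing in the labels says more than that replicates are biological, so the p-values speak of the spread among libraries, which may be technical in part. Alternatives were size-factor (RLE) or no scaling, 2 other filters, DESeq2 1.42.0, limma 3.58.1 on log2(FPKM + 1) or log2(FPKM + 0.1), a non-robust test, protein-coding genes only, a replicate block, each library left out and, chosen after seeing the data, napabucasin replicate 5 and vehicle replicate 1 left out together. Libraries that share a replicate number deviated together from their group means, with correlations across genes of 0.154, 0.227, 0.208, 0.27 and 0.278, a pairing seen in the data alone. The main fit stayed without the block, as did the permutation test, and block values are printed where they cross p = 0.05. In simulated data for this comparison (14034 genes), the fit called 100% of the 55 genes simulated with an 8-fold change, 92.3% of 39 with 4-fold, 27.5% of 40 with 2-fold, 3.77% of 53 with 1.5-fold and 0.0289% of 13847 with none.

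The family was chosen by name, and the marker and signalling lists were written, with earlier results of these data known. Genes named were the members at an unadjusted p under 0.05, a set of ligand and receptor axes whatever their p, and 4 signalling genes per direction; other members were named to account for the family. The values of 1 tested member are not reported here and not drawn in the figures, and the counts include it. Upstream sequences are from RefSeq, GRCm38.p6.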

Additional observations from a re-analysis of the deposited data

Results flagged for a closer look

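For 30 named members, 60 groups of 5 values were searched for a library standing apart, by Dixon's ratio of the end gap to the range (critical value 0.71). It picked out 7 values. About 1 in 20 groups, or 3 here, would be picked out by chance if the values were normal. CPM were not shown to be normal and the members share libraries, so 7 against 3 is not a test. Napabucasin replicate 4 was far above its group in Cxcl12 (417 CPM against 210 to 267, ratio 0.727), and napabucasin replicate 1 in Ccl25 (8.29 CPM against 3.95 to 4.53, ratio 0.866). Vehicle replicate 4 was far above its group in Cx3cl1 (4.83 CPM against 2.05 to 2.39, ratio 0.879) and in the receptor Cx3cr1 (6.46 CPM against 2.30 to 2.98, ratio 0.835). Vehicle replicate 2 was high in the scaffold entry of Ccl21a (1.24 CPM against 0.144 to 0.426, ratio 0.742) and low in Cxcl9 (11.5 CPM against 22.1 to 25.3, ratio 0.771). Vehicle replicate 1 was high in Ccl27a (18.8 CPM against 7.16 to 9.05, ratio 0.838).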

How the results depend on the processing

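Of 652 values of the 30 named members under the alternatives, 628 kept the direction and the side of the adjusted threshold, 23 of 9 members changed sign and 1 (Ccl21a by DESeq2, 2.40) passed; the cause was not tested. Genes past the adjusted threshold numbered 212 by DESeq2, 19 without a filter, 1 with library size as the only scaling, 1 by limma on log2(FPKM + 0.1), 14 with napabucasin replicate 5 and vehicle replicate 1 both left out, and 0 to 18 with 1 library left out (18 without vehicle replicate 1). Members past it numbered 1 by DESeq2 and 0 in every other fit. Members at an unadjusted p under 0.05 were 4 to 11 higher and 0 to 2 lower with 1 library left out, 12 and 2 with the replicate block, 8 and 1 without the 2 libraries, 0 lower with library size as the only scaling and 2 lower without a filter. Of all genes tested, 5.88% to 11.3% were higher and 3.15% to 8.25% lower with 1 library left out. The shares were 11.8% and 8.81% with the block and 11.1% and 8.76% without the 2 libraries. On the lower side they were 2.53% with library size as the only scaling and 5.31% without a filter. Scaling by library size alone moved the median of all genes by 0.07. The members' median log2 fold change was 0.35 to 0.55 with 1 library left out, and 0.060 by limma on log2(FPKM + 1) without a filter, which adds members near 0 FPKM. The replicate block changed no call at the adjusted threshold.

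Left-out ranges of the members that changed sign were -0.12 to 0.20 for Ccl25, -0.27 to 0.27 for Cx3cr1, -0.21 to 0.47 for Ackr2, -0.11 to 0.54 for Ackr4, -0.18 to 0.48 for Ccl6, -0.067 to 0.39 for Ccr2, -0.35 to 1.13 for Ccl2, -0.40 to 0.48 for Ccl3 and -1.34 to 0.28 for Cxcl1. Ccl3 was -0.14 by limma on log2(FPKM + 0.1) and -0.020 with the replicate block, and Ccl2 was -0.15 without the 2 libraries. Members with under 20 counts per library have wide intervals at this depth. Wide intervals were not limited to them, since Cxcl1, with 96 to 4821 counts per library, had -2.72 to 0.94.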
